A study of Mus musculus with 8 samples.

Results

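The 4 libraries described here come from bone marrow-derived macrophages titled Ern1f/fLyz2-Cre, 2 given interleukin-4 (IL-4) and 2 untreated controls, out of 8 libraries in the series. They were chosen by their titles alone, and no measured value entered the choice. The cells came from the femur and tibia of male mice on the C57BL/6J background, 8 weeks old, and were differentiated in L929 cell-conditioned medium over 7 days. IL-4 was given at 20 ng/ml for 24 hours, and the controls received none. Both groups carry floxed alleles of Ern1 and a Cre recombinase expressed from Lyz2, the lysozyme gene of myeloid cells. The remaining 4 libraries, titled Ern1f/f, carry the floxed alleles without Cre and had the same ages, culture and IL-4 dose. In 4 of the 8 libraries the genotype field of the labels goes against the title, and it follows the replicate number instead. Groups here follow the titles, and whether the Cre groups lack a working Ern1 rests on those titles.

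IL-4 binds a receptor on macrophages that signals through Janus kinases to the transcription factor STAT6 and turns on a program called alternative activation, in which arginase, lectin receptors and chitinase-like proteins are made and inflammatory genes are restrained. Ern1 encodes IRE1α, a sensor of unfolded protein in the endoplasmic reticulum that splices the Xbp1 messenger RNA and can also cut other messengers. The series set macrophages with and without Cre beside each other to ask what IRE1α does in this activation.

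Levels are given as FPKM, fragment counts scaled by transcript length and by library depth, and differences as log2(FPKM + 1), IL-4 minus control. This scale understates the change of genes at low levels. Each group has 2 libraries, numbered 1 and 2, and the labels do not say that they came from separate mice or cultures, so a p measures only the spread between these libraries. Same-numbered libraries shared their deviations from the group means (correlation 0.688 to 0.827 over 6 pairs of groups), and the replicate number was therefore also fitted as a block. "Rose" and "fell" are used for genes past an adjusted p of 0.05 by limma with this block, and adjusted p-values are from that fit unless stated. Depth implied by the deposited confidence intervals ran from 21500000 to 37900000 fragments. The macrophage genes Csf1r (356 to 780 FPKM), Cd68 (669 to 989 FPKM) and Itgam (157 to 265 FPKM) were present in all 4 Cre libraries. Summed over 10 macrophage markers, the Cre controls held 14200 and 4830 FPKM and the IL-4 libraries 8540 and 4490 FPKM, in order of replicate number, and 5 of the 10 were lower in both numbers. Lyz2, the lysozyme gene whose locus carries Cre, made up much of these sums, with 10949 and 2171 FPKM in controls and 5780 and 1572 FPKM with IL-4 (adjusted p = 0.572). In Ern1f/f cells the sums of the 10 macrophage markers were 21500 and 20200 FPKM in controls and 11900 and 14600 FPKM with IL-4, in the same order. Summed over 12 fibroblast markers, the Cre controls held 939 and 13.8 FPKM and the IL-4 libraries 448 and 81.1 FPKM. Fn1, the fibronectin gene, which macrophages also make, supplied 7.72 and 76.9 FPKM of the sums in the libraries numbered 2. Of 9 mast cell markers, Mcpt4 and Tpsb2 were at 0 in all 4 libraries and every one was under 1 FPKM, as were 9 of 11 neutrophil, 8 of 9 dendritic cell and 8 of 9 T or NK cell markers. Of 6 monocyte markers 1 was under 1 FPKM throughout, and 4 of the 5 tested were lower with IL-4 in both numbers. In bulk samples fewer cells of a type and less RNA per cell cannot be told apart.

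In Cre macrophages IL-4 raised 19 of 30 alternative activation markers, Arg1 and Mrc1 among them. That list was chosen with earlier results of these data known, so the count is description only. Among the genes that fell were the formyl peptide receptor Fpr2, the iron exporter Slc40a1 and Tlr2. The groups overlapped for Fpr2, and Slc40a1 was close to the threshold (adjusted p = 0.047 by limma with the block). Without the block, 6 of 10934 genes tested rose (0.0549%) and 0 fell, while 933 (8.53%) had an unadjusted p under 0.05. The 6 were Arg1, Cish, Clec4b1, Ocstamp, Slc7a2 and Tmem26. With the block 363 genes (3.32%) passed, 196 higher (1.79%) and 167 lower (1.53%), and every one of the 363 had the same sign in both replicate numbers. The higher genes moved further: their median log2 difference was 1.05 against -0.85 for the lower ones, and 29 higher genes reached a log2 difference of 2 while 1 lower gene, Fpr2, reached -2. Over all genes tested, 31.3% were higher and 33.6% lower in both numbers, and 34.8% had opposite signs. The differences in the 2 replicate numbers correlated across the 10934 genes at r = 0.552, a description in which genes are not independent and the members of a number share a shift. Most of the 363, 267 genes, were on none of the gene lists used below. Counts of list members that rose or fell are to be read against the shares of all genes, 1.79% and 1.53%. Members and lists were chosen with earlier results of these data known, which these shares do not allow for. The number of calls depended on single libraries: with the block it was 7 and 2 without Cre IL-4 replicates 1 and 2, 68 and 141 without Cre control replicates 1 and 2, and 168 and 163 without Ern1f/f control replicates 1 and 2. All 363 kept their sign in each of these fits, which adds little. Leaving out an Ern1f/f library leaves the Cre difference unchanged, and the 363 already shared a sign in both Cre pairs.

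**Figure D1:**
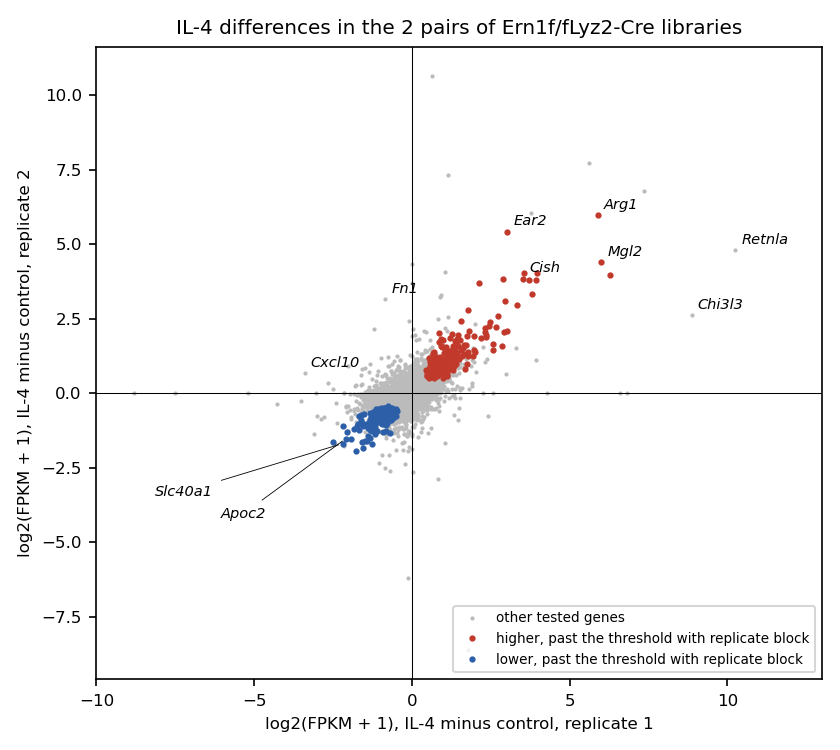
Each point is 1 of the 10934 genes tested, with its log2(FPKM + 1) difference between IL-4 and control in replicate 1 on the x axis and in replicate 2 on the y axis. The 196 higher (red) and 167 lower (blue) genes past the threshold with the replicate block lie in the quadrants where both differences share a sign, while Fn1 and Cxcl10 lie where the signs differ.

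Arg1, which encodes arginase 1, the enzyme that turns arginine into ornithine and urea, showed the largest rise past the threshold. It read 0.0611 and 1.15 FPKM in the Cre controls and 62.3 and 136 FPKM with IL-4, and moved from rank 13865 and 10007 among all genes to rank 1149 and 561. Both IL-4 libraries lay far above both controls, and the differences within the 2 numbers were nearly the same (log2 5.90 and 5.99, mean 5.94 ± 0.23, SE, adjusted p = 0.000395). Cish, a feedback inhibitor of cytokine signalling, had the smallest p: 0.521 and 0.763 FPKM became 16.5 and 24.4 FPKM (log2 3.69 ± 0.13, SE, adjusted p = 0.000371). Arg1 and Cish passed in 8 of 8 fits that each left out 1 library. Slc7a2, the transporter that brings arginine into the cell, went from 7.73 and 5.36 to 66.3 and 53.1 FPKM (log2 3.02, adjusted p = 0.00554). Of the 19 genes tested on the list of arginine, polyamine and proline metabolism, Arg1, Slc7a2 and Il4i1 were the 3 that rose and 0 fell. Il4i1 is on this list although it encodes an oxidase of aromatic amino acids. Odc1, which makes polyamines from ornithine, read 22.9 and 13.4 FPKM in controls and 33.7 and 21.3 FPKM with IL-4 (adjusted p = 0.0621). Within each number Odc1 was higher with IL-4, but the groups overlapped.

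Lectin and surface genes made up much of the rest of the leading set. Mgl2, a galactose-binding C-type lectin, was near background in controls at 0.134 and 0.245 FPKM and reached 71.7 and 25.2 FPKM (mean log2 5.2, adjusted p = 0.0101). Pdcd1lg2 encodes PD-L2, a ligand of the inhibitory T cell receptor PD-1, and went from 0.0784 and 0.869 to 13.9 and 17.6 FPKM (log2 3.56, adjusted p = 0.00182). Tmem26, a transmembrane protein gene, went from 1.27 and 2.36 to 28.6 and 46.1 FPKM (log2 3.76, adjusted p = 0.0013). For each of these genes both IL-4 libraries stood far above the higher control, and a lack of overlap was a condition of their choice. Ocstamp, a membrane protein of macrophage and osteoclast fusion, went from 0.131 and 0.229 to 16.9 and 19.1 FPKM (log2 4.01, adjusted p = 0.00554). Clec4b1, another C-type lectin, had the smallest standard error of the 6 genes that passed in both fits, with 3.81 and 3.67 FPKM in controls and 15.3 and 16.5 FPKM with IL-4 (log2 1.84 ± 0.12, SE, adjusted p = 0.00416).

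Secreted and lipid-related genes completed the 12 largest rises. Ear2 and Ear11, ribonucleases of the eosinophil-associated family, read 7.07 and 5.61 FPKM and 0.058 and 6.33 FPKM in controls, and 64.3 and 283 FPKM and 81.6 and 113 FPKM with IL-4. Close paralogs of Ear2 and Ear11 share sequence, so their reads may be split in gene-level values. Il4i1, a secreted oxidase of aromatic amino acids, went from 1.99 and 0.839 to 34.2 and 28.8 FPKM (log2 3.79, adjusted p = 0.00416). Apol7c, of the apolipoprotein L family, went from 0.68 and 0.0594 to 24.7 and 13.7 FPKM (log2 3.87, adjusted p = 0.000763). Rbp4, the retinol carrier of plasma, went from 0.67 and 1.59 to 11.2 and 36.3 FPKM, and the lipase gene Lipn from 0.339 and 3.14 to 12.5 and 31.2 FPKM. The groups did not overlap in any of these 6 genes, which the rule that chose them fixed in advance. Of the 196 higher genes 182 had no overlap, but they were called from these same libraries, so this is no separate support. Across all genes tested 17.7% had both IL-4 libraries above both controls. Without Cre control replicate 1, Mgl2, Ear11 and Rbp4 no longer passed, and without Cre control replicate 2 Ear11 (adjusted p = 0.0674), Ear2 (0.051) and Rbp4 (0.0593) did not; without Cre IL-4 replicate 1, Tmem26 and Apol7c were the 2 of these 6 and the preceding 5 genes that passed, and without Cre IL-4 replicate 2 none of the 11 did. Ear2 also missed the threshold without either Ern1f/f control (adjusted p = 0.0641 and 0.0655), although those libraries do not enter its difference.

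**Figure D2:**
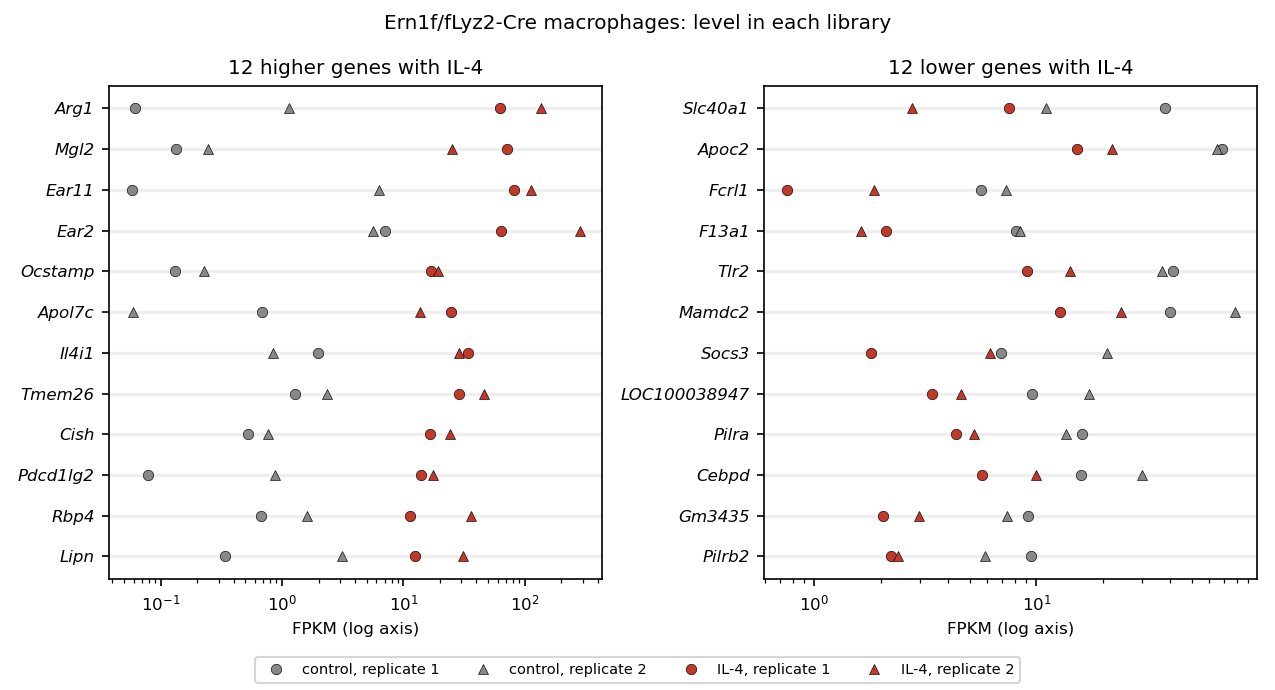
Levels of the 12 higher (left) and 12 lower (right) genes with the largest differences among those that passed with the replicate block and whose groups did not overlap, 1 row per gene, FPKM on a log x axis. Grey marks are the 2 controls and red marks the 2 IL-4 libraries, with circles for replicate 1 and triangles for replicate 2. The choice of genes fixes that grey and red do not overlap, and Fpr2, which fell further than the lower genes shown, is left out by that limit.

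STAT proteins bind the palindrome of TTC and GAA with a few bases between them, and STAT6 favours the spacing of 4, TTCNNNNGAA. The 250 bases upstream of RefSeq start sites (GRCm38.p6) were searched for these letters, which read the same on both strands, with overlapping matches allowed. Of the leading higher genes with an entry, 4 hold the motif. Their upstream sequences are printed below in the direction of transcription, with the motif in capitals, because they are the promoters of strongly responding genes in which these letters occur.
Tmem26, chr10:68723496-68723745, plus strand: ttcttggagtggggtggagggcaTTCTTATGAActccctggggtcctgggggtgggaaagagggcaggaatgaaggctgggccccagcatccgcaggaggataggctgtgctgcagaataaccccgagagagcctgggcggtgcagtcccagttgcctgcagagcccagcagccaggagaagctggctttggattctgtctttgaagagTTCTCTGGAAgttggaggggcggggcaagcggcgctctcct
Apol7c, chr15:77533316-77533565, minus strand: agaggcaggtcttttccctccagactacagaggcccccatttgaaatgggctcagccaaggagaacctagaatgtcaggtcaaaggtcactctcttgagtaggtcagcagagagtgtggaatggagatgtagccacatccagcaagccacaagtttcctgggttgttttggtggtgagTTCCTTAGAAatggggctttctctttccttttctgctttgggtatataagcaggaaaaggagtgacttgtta
Pdcd1lg2, chr19:29410669-29410918, plus strand: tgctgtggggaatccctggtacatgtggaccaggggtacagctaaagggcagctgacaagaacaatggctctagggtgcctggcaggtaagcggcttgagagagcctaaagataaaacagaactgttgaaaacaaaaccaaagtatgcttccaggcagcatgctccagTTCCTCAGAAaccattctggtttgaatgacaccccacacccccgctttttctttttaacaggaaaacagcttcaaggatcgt
Rbp4, chr19:38125322-38125571, minus strand: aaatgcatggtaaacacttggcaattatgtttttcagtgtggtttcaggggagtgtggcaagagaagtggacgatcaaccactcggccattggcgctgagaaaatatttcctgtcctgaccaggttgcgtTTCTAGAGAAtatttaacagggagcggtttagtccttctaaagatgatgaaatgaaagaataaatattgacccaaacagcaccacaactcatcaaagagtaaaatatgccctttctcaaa

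The Tmem26 window holds 2 copies of the motif and the other windows 1 each, and the other Rbp4 start site listed in RefSeq has none. The upstream windows of Mgl2, Ear2, Il4i1, Cish, Lipn and Clec4b1 do not hold these letters. Among genes that rose, 16 of 156 with an entry held the motif (10.26%), among genes that fell 4 of 128 (3.12%), among genes tested 475 of 8206 (5.79%) and among all RefSeq genes 1826 of 27025 (6.76%). For the spacing of 3, TTCNNNGAA, the shares were 7.05% of genes that rose, 9.38% of genes that fell, 7.17% of genes tested and 8.13% of all RefSeq genes. A match describes letters and not a bound site, and no test was made of these shares.

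Genes of the IL-4 signal itself moved in both directions. Jak2, a kinase of cytokine receptors, was the 1 of 16 receptor, kinase and STAT genes that rose, from 9.71 and 8.42 to 20.2 and 31.8 FPKM (log2 1.39, adjusted p = 0.0191). Il4ra, the IL-4 receptor chain, fell within each number, from 26.4 to 14.8 FPKM and from 47.1 to 30 FPKM (log2 -0.71, adjusted p = 0.0396), while the groups overlapped because both libraries numbered 2 were high. Stat6 read 63.9 and 54.5 FPKM in controls and 53.1 and 50.8 FPKM with IL-4 (adjusted p = 0.401). Among the 8 SOCS feedback inhibitors, Cish, Socs1 and Socs2 rose and Socs3 fell. Socs1 went from 2.61 and 10.6 to 24.9 and 34 FPKM (log2 2.22), and Socs3 from 6.9 and 20.8 to 1.81 and 6.17 FPKM (log2 -1.55, adjusted p = 0.0101). Socs3, an inhibitor of STAT3 signalling, was lower in each IL-4 library than in either control.

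Among 31 transcription factors of macrophage activation, 7 rose and 3 fell, against 1.79% and 1.53% of all genes. Irf4, which acts downstream of STAT6, went from 0.598 and 0.468 to 9.52 and 7.93 FPKM (log2 2.66, adjusted p = 0.0056). Nfil3 went from 4.57 and 6.69 to 34.2 and 35 FPKM (log2 2.44, adjusted p = 0.00723). Egr2, an early growth response factor, went from 11.6 and 15.8 to 73.6 and 51.8 FPKM (log2 2.11). Irf4, Nfil3 and Egr2 had IL-4 libraries that lay close together and well above the controls. Pparg, a lipid-sensing nuclear receptor, went from 29.7 and 12.8 to 63.9 and 39.1 FPKM (log2 1.31, adjusted p = 0.0143), and Bhlhe40, Tfec and Irf1 rose by log2 1.27, 1.52 and 0.71. Cebpd, a factor of the inflammatory response, fell from 16 and 30 to 5.69 and 9.98 FPKM (log2 -1.42, adjusted p = 0.0077). Bhlhe41 and the nuclear receptor gene Ppard fell (log2 -0.92 and -0.68). Myc (log2 1.67 and 0.91 in numbers 1 and 2) and Klf4 (1.47 and 1.0) were higher in both numbers without passing.

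Of 30 alternative activation markers tested, 29 were higher in both numbers and 0 lower in both, with a median log2 difference of 2.29 against -0.02 over all genes. Because the list was chosen with earlier results of these data known, this contrast with all genes is no separate support. With the block 19 rose and 0 fell, and 5 of them (all but Clec4b1 of the 6 genes) rose without it. Within numbers 1 and 2 the median log2 difference of the 30 was 2.81 and 2.07. A single pair of Cre libraries has no replicate, so calls from 1 pair would take their spread from Ern1f/f libraries alone. Mrc1, the mannose receptor, went from 54 and 39 to 193 and 170 FPKM (log2 1.96, adjusted p = 0.00517). Clec7a, the β-glucan receptor Dectin-1, went from 282 and 131 to 693 and 296 FPKM (log2 1.23), and Clec10a from 2.92 and 2.98 to 12.4 and 9.47 FPKM (log2 1.59). Each of these receptors was higher in both IL-4 libraries than in both controls. Flt1, a receptor of vascular endothelial growth factor, went from 0.0698 and 0.22 to 7.61 and 4.19 FPKM (log2 2.55, adjusted p = 0.0191). Of 17 C-type lectin receptors tested in all, 6 rose and 0 fell; Clec4d, which read 380 and 237 FPKM in controls and 84.8 and 110 FPKM with IL-4, missed the threshold (adjusted p = 0.053).

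The levels of 2 abundant IL-4 markers, Retnla and Chi3l3, differed widely between the replicate numbers. Retnla, which encodes the resistin-like protein RELMα, read 0.222 and 87.7 FPKM in the Cre controls and 1482 and 2485 FPKM with IL-4. Chi3l3, the chitinase-like protein Ym1, read 0.407 and 1088 FPKM in controls and 655 and 6637 FPKM with IL-4. Thus control replicate 2 held more Chi3l3 than IL-4 replicate 1, and the groups overlapped, while for Retnla they did not. The log2 differences of Retnla were 10.24 and 4.81 (adjusted p = 0.0525) and those of Chi3l3 8.86 and 2.61 (adjusted p = 0.124). In rank of FPKM, Chi3l3 went from 11800 to 146 in number 1 and from 74 to 5 in number 2, and Retnla from 12523 to 61 and from 766 to 31. Lgals3, the galactose-binding protein galectin-3, was abundant throughout and rose from 2884 and 2075 to 6360 and 3881 FPKM (log2 1.02, adjusted p = 0.0173).

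**Figure D3:**
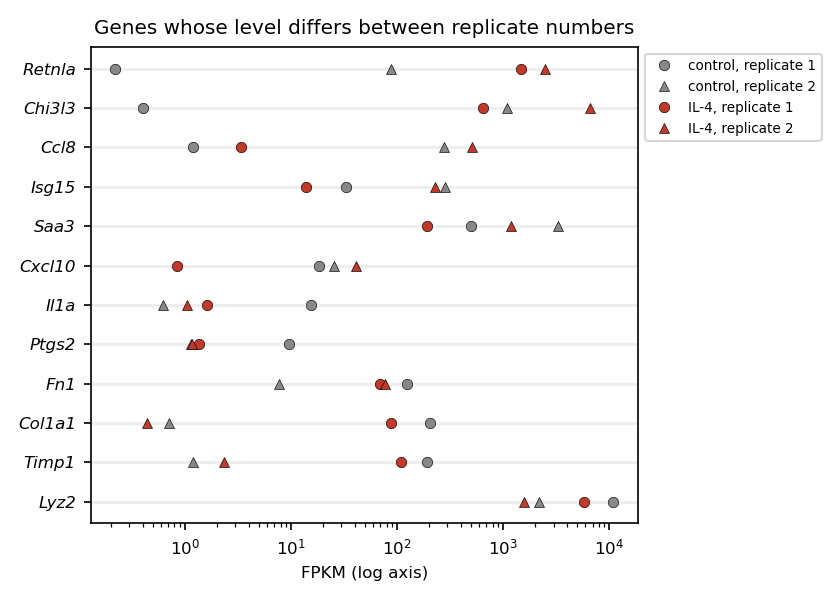
Levels in the 4 Cre libraries of 12 genes chosen because their level differs between replicate numbers, FPKM on a log x axis, grey for control and red for IL-4, circles for replicate 1 and triangles for replicate 2. Col1a1, Timp1 and Lyz2 lie by number rather than by treatment, Retnla lies by treatment, and Il1a and Ptgs2 are high in control replicate 1 alone.

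Chemokines and their receptors split by member. Of 20 chemokines tested, Ccl6, Ccl8 and Ccl9 rose and 0 fell. Ccl6 went from 92.6 and 93 to 195 and 233 FPKM (log2 1.19, adjusted p = 0.0141), and Ccl9 from 70.4 and 44.8 to 174 and 104 FPKM (log2 1.25, adjusted p = 0.0149). Ccl8 read 1.2 and 279 FPKM in controls and 3.42 and 513 FPKM with IL-4 (log2 0.94, adjusted p = 0.0311). Its level followed the replicate number, and without the block its sign turned to -2.55 when Cre control replicate 1 was left out. Ccr1 and Ccr3, receptors for inflammatory chemokines and eotaxins, rose from 5.56 and 3.36 to 25.1 and 10.4 FPKM and from 1.58 and 0.768 to 7.7 and 2.45 FPKM. The formyl peptide receptor Fpr2 fell from 12.3 and 83.4 to 1.34 and 25.9 FPKM (log2 -2.08, adjusted p = 0.00999). Fpr1 showed the same order, 18.6 and 118 FPKM in controls and 1.28 and 45.5 FPKM with IL-4, at an adjusted p of 0.0577.

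Antigen presentation genes were higher with IL-4 in both numbers for 9 of the 13 MHC class II genes tested, against 31.3% of all genes, with a median log2 difference of 0.96. The 3 that rose, against 1.79% of all genes, act in peptide loading: H2-DMa went from 29.4 and 26.4 to 69.5 and 61 FPKM (log2 1.20, adjusted p = 0.0179), H2-DMb1 from 54.3 and 44.7 to 123 and 121 FPKM (log2 1.29, adjusted p = 0.0077) and H2-DMb2 from 6.53 and 1.42 to 15.8 and 3.13 FPKM (log2 0.96, adjusted p = 0.0311). H2-DMb2 differed more between numbers than between treatments. Cd74, the invariant chain, read 1816 and 1336 FPKM in controls and 3716 and 2924 FPKM with IL-4, which did not pass (adjusted p = 0.0555), although the groups were well apart. The class II chain H2-Aa read 561 and 419 FPKM and 961 and 1052 FPKM (adjusted p = 0.0715). Of 13 costimulatory and coinhibitory ligands, Pdcd1lg2 and Cd274 rose and 0 fell. Cd274 encodes PD-L1, the second ligand of PD-1, and read 24.9 and 58.1 FPKM in controls and 48.7 and 112 FPKM with IL-4, about log2 0.94 higher in each number. With IL-4 PD-L1 messenger thus remained more abundant per length than that of PD-L2 in both numbers.

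Fusion, adhesion and remodelling genes moved by member. Among 18 fusion and osteoclast genes 5 rose and 0 fell: beside Ocstamp these were Dcstamp (0.857 and 2.22 to 12.9 and 12.3 FPKM, log2 2.48), the proton pump subunit gene Atp6v0d2 (203 and 193 to 397 and 350 FPKM, log2 0.91), the integrin gene Itgb3 (1.89 and 3.02 to 12.2 and 13.4 FPKM, log2 2.02) and Cd44 (log2 0.87). Other osteoclast genes did not pass, with 13.6 and 29.2 FPKM of Ctsk in controls and 15 and 38 FPKM with IL-4. Itgax, the integrin CD11c, rose from 55.1 and 83.3 to 283 and 323 FPKM (log2 2.14, adjusted p = 0.00834), while the integrins Itga6 and Itgal fell (log2 -1.33 and -0.85). Of 21 integrin and adhesion genes 3 rose and 2 fell, with 7 higher and 8 lower in both numbers and a median log2 difference of -0.20. Of 19 matrix proteases and inhibitors 2 rose and 0 fell, and of 15 growth factors of repair 1 rose and 1 fell. Mmp12, macrophage elastase, went from 94.2 and 366 to 360 and 868 FPKM (log2 1.58, adjusted p = 0.0141). F10, coagulation factor X, went from 7.57 and 5.95 to 46 and 32.3 FPKM (log2 2.36, adjusted p = 0.0103), and F13a1, the clot-stabilising transglutaminase, fell from 8.08 and 8.46 to 2.09 and 1.62 FPKM (log2 -1.70, adjusted p = 0.0101). F13a1 is also 1 of 6 monocyte markers, whose sum read 18.6 and 39.8 FPKM in controls and 8.73 and 22.6 FPKM with IL-4, and their part in this fall was not tested. Igf1, a growth factor of repair, rose from 111 and 91.1 to 271 and 253 FPKM (log2 1.37, adjusted p = 0.00696). Vegfa, an angiogenic factor, fell from 18.1 and 12 to 5.97 and 5.33 FPKM (log2 -1.25, adjusted p = 0.0441). In Igf1, F10, F13a1 and Vegfa the treatments were fully separated and the replicates lay close to each other.

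Among lower genes without overlap between the groups, Slc40a1 and Apoc2 had the largest differences. Slc40a1, the iron exporter ferroportin, read 37.9 and 11.1 FPKM in controls and 7.51 and 2.74 FPKM with IL-4 (log2 -1.94, adjusted p = 0.047). Apoc2, the apolipoprotein that activates lipoprotein lipase, read 68.3 and 65 FPKM in controls and 15.2 and 21.9 FPKM with IL-4 (log2 -1.81, adjusted p = 0.0267). Of 21 iron handling genes Slc40a1 and Slc11a1 fell and Tfrc rose. Slc11a1, the phagosomal metal transporter NRAMP1, went from 248 and 225 to 98.9 and 119 FPKM (log2 -1.11, adjusted p = 0.014). Tfrc, the transferrin receptor, rose within each number, from 24.1 to 75.1 FPKM and from 114 to 270 FPKM (log2 1.42, adjusted p = 0.0126). The ferritin genes Fth1 (adjusted p = 0.0877) and Ftl1 (adjusted p = 0.631) did not pass. Slc40a1 missed the threshold without either Cre IL-4 library (adjusted p = 0.231 and 0.192), Cre control replicate 1 (0.18) or either Ern1f/f control (0.0934 and 0.0965), and Apoc2 without any of the 4 Cre libraries (0.0705 to 0.206). With the block, Slc40a1 also missed it with a pseudocount of 5 and with median centring. Fibroblast markers other than Fn1 summed to 813 and 6.12 FPKM in controls and 378 and 4.13 FPKM with IL-4, lower with IL-4 in both numbers, and their part in the lower genes was not tested.

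Receptors that sense microbes, and paired inhibitory and activating receptors, were among the lower genes too. Tlr2, a receptor for bacterial lipoproteins, fell from 41.1 and 36.7 to 9.04 and 14.1 FPKM (log2 -1.69, adjusted p = 0.0144), and Irak3, an inhibitory kinase of this pathway, from 13.7 and 54.9 to 5.12 and 29.7 FPKM (log2 -1.06). These were the 2 of 29 pattern recognition genes that fell, and 0 rose. The lipopolysaccharide co-receptor Cd14 read 199.7 and 89.3 FPKM in controls and 37.4 and 44.4 FPKM with IL-4, without overlap, at an adjusted p of 0.0573. Pilra, an inhibitory receptor, fell from 16 and 13.6 to 4.32 and 5.25 FPKM (log2 -1.45, adjusted p = 0.00823), and its activating partners Pilrb1 and Pilrb2 fell (log2 -1.24 and -1.36). Pilra, Pilrb1 and Pilrb2 are close in sequence and their reads may be shared. They were the 3 of 23 paired receptors that fell, and Cd300lb, from 84.7 and 76 to 191 and 140 FPKM, was the 1 that rose. Fcrl1, an Fc receptor-like gene, fell from 5.64 and 7.28 to 0.751 and 1.86 FPKM, and Mamdc2, a gene of a matrix-type protein, from 40 and 78.1 to 12.8 and 24.1 FPKM. LOC100038947 and Gm3435, gene models without a name, fell (log2 -1.49 and -1.42). Both IL-4 libraries lay below both controls for 138 of the 167 lower genes, against 16.6% of all genes tested. The 167 were called from these same libraries, so this contrast is no separate support.

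Inflammatory genes of classical activation were lower in both numbers for 15 of 24 tested, against 33.6% of all genes, and higher in both for 0, but mainly through the libraries numbered 1. The median log2 difference was -1.22 in number 1 and -0.26 in number 2, and 4 genes fell: Fpr2, Saa3, Nfkbiz and Cd38. Saa3, an acute-phase protein, fell within each number by nearly the same log2 step (-1.38 and -1.45), from 501 to 192 FPKM and from 3272 to 1194 FPKM. Nfkbiz, a nuclear regulator of NF-κB, went from 10.1 to 1.44 FPKM and from 77.2 to 35.1 FPKM, and Cd38, an enzyme that consumes NAD, from 1.4 to 0.349 FPKM and from 9.62 to 4.05 FPKM. Saa3, Nfkbiz and Cd38 were each higher in IL-4 replicate 2 than in control replicate 1, so the groups overlapped. Cre control replicate 1 stood out for 3 inflammatory messengers: Il1a read 15.6 FPKM there and 0.618 to 1.62 FPKM in the other 3 libraries, Il1b 58.7 against 2.09 to 3.34 FPKM and Ptgs2 9.56 against 1.16 to 1.36 FPKM. A fit that keeps 1 pair of Cre libraries has no Cre replicate, so calls from a single number are not compared here. Tnf read 27.8 and 45.8 FPKM in controls and 6.47 and 25.7 FPKM with IL-4 and did not pass (adjusted p = 0.06).

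**Figure D4:**
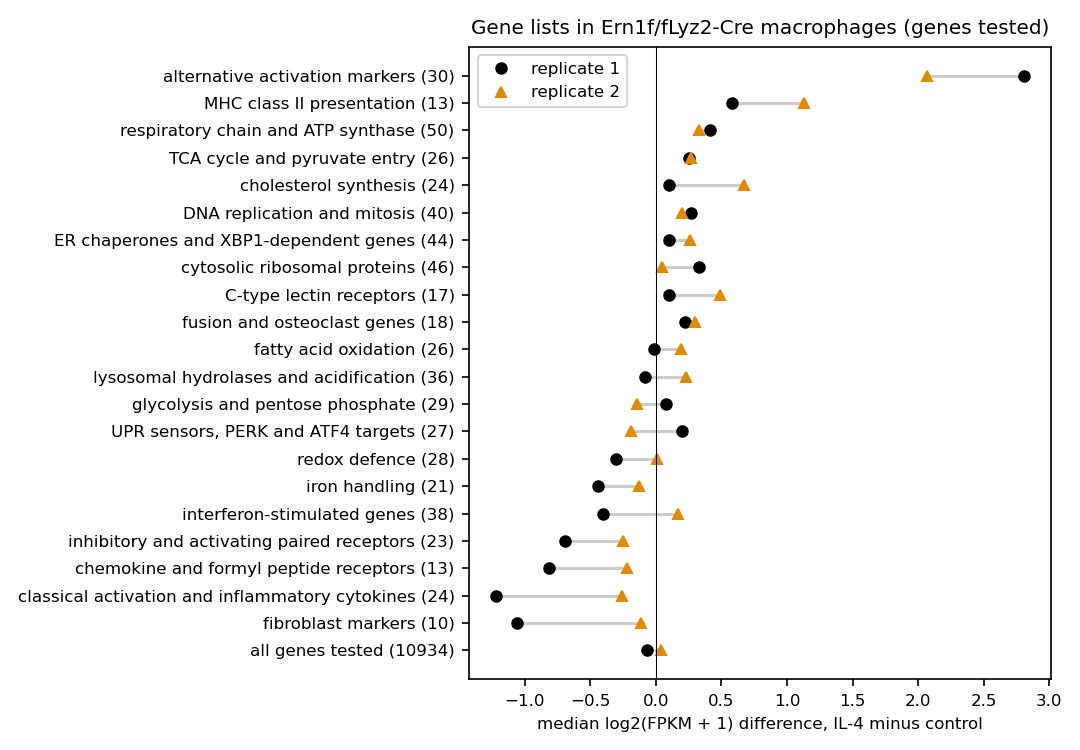
Median log2(FPKM + 1) difference between IL-4 and control over the tested members of 21 gene lists and over all genes, in replicate 1 (black circles) and replicate 2 (orange triangles), with the number of genes tested in brackets. Alternative activation (2.81 and 2.07) lies far from the medians of all genes (-0.07 and 0.04), and classical activation (-1.22 and -0.26) and fibroblast markers (-1.06 and -0.11) differ most between the numbers among the lower lists. The lists were chosen with earlier results of these data known.

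Respiratory chain genes were higher by small steps. Of 50 genes of the respiratory chain and ATP synthase, 46 were higher in both numbers and 0 lower in both, against 31.3% higher in both over all genes, with a median log2 difference of 0.39, yet 0 passed with or without the block; the smallest adjusted p was 0.06, for Sdhd. Sdhd, a subunit of succinate dehydrogenase, read 67.4 and 65.3 FPKM in controls and 95 and 91.7 FPKM with IL-4. The complex IV subunit Cox7b read 98.6 and 93.1 FPKM and 178 and 150 FPKM (log2 0.76, adjusted p = 0.0607). In 37 of the 50 genes both IL-4 libraries lay above both controls, against 17.7% of all genes tested. Of 26 genes of the citric acid cycle and pyruvate entry, Idh3a, the catalytic subunit of an isocitrate dehydrogenase, was the 1 that rose, from 12.1 and 13.4 to 19.9 and 24.7 FPKM (log2 0.75, adjusted p = 0.0306), and 17 were higher in both numbers. Hadhb, of the mitochondrial enzyme that oxidises long-chain fatty acids, rose from 34.5 and 29 to 48.5 and 48.1 FPKM (log2 0.60, adjusted p = 0.0415), the 1 of 26 fatty acid oxidation genes to do so; of these 11 were higher and 4 lower in both numbers and 11 had opposite signs, with a median of 0.07. Dhcr7, the last enzyme of cholesterol synthesis, rose from 15.4 and 14.4 to 25.5 and 29.6 FPKM (log2 0.84, adjusted p = 0.0179 by limma with the block). It was the 1 of 24 cholesterol synthesis genes that rose, while 17 were higher and 0 lower in both numbers. Their median log2 difference was 0.37, with 0.1 in number 1 and 0.67 in number 2.

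Of 29 glycolysis and pentose phosphate genes 3 fell, against 1.53% of all genes, and 0 rose. The list had no common direction: 8 were higher and 11 lower in both numbers, and 10 had no common sign. Its median log2 difference was -0.09 against -0.02 over all genes. Slc16a3, which exports lactate, fell from 18.9 and 28 to 10.4 and 10.9 FPKM (log2 -1.05, adjusted p = 0.0169). Pfkl, a phosphofructokinase, fell from 21.9 and 20.6 to 11.2 and 12.4 FPKM (log2 -0.80, adjusted p = 0.0191), and Pfkfb3, which makes an activator of that enzyme, fell by 0.78. The isoform Pfkp read 12.7 and 26.3 FPKM in controls and 37.4 and 42.8 FPKM with IL-4 (adjusted p = 0.0855). The antioxidant genes Gpx3, a secreted glutathione peroxidase, and Cat, catalase, both fell, 2 of 28 redox genes, with 0 rising; Gpx3 went from 114 and 89.4 to 43 and 39.9 FPKM. In the eicosanoid list 3 of 16 rose and 0 fell: Ptgs1, the constitutive cyclooxygenase, went from 16.9 and 4.28 to 60.1 and 35.2 FPKM (log2 2.28, adjusted p = 0.00803), the thromboxane synthase Tbxas1 from 60.3 and 44.8 to 155 and 104 FPKM (log2 1.27) and the phospholipase Pla2g4a from 8.91 and 9.14 to 13.3 and 13.5 FPKM (log2 0.52). Dhrs3, a reductase of retinal, rose from 213 and 165 to 424 and 288 FPKM (log2 0.89, adjusted p = 0.0208), and with Rbp4 was 1 of 2 of 9 retinoid genes that rose.

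Ern1 itself read 14.3 and 12.7 FPKM in the Cre controls and 7.43 and 11 FPKM with IL-4. Both IL-4 libraries were below both controls, and the log2 difference of -0.53 did not pass (adjusted p = 0.562 without the block and 0.18 with it). A gene-level value does not show the loss of single exons and so does not check the deletion. Xbp1, whose messenger IRE1α splices, read 41.9 and 37.4 FPKM in controls and 46.5 and 39.5 FPKM with IL-4 (log2 0.11, adjusted p = 0.656), and total Xbp1 does not separate its spliced form. Of 44 endoplasmic reticulum chaperone and XBP1-dependent genes, 27 were higher and 6 lower in both numbers, against 31.3% and 33.6% of all genes, with a median log2 difference of 0.15 against -0.02. The 2 of 44 that rose are near the 1.79% of all genes that did, and they are given as single genes. Pdia4, a protein disulfide isomerase, rose from 33.2 and 32.2 to 61 and 108 FPKM (log2 1.29, adjusted p = 0.0284), and Creld2, another protein of the reticulum, from 15.3 and 10.3 to 23.2 and 20.3 FPKM (log2 0.74, adjusted p = 0.0365). The chaperone gene Hsp90b1 read 160 and 155 FPKM in controls and 215 and 313 FPKM with IL-4 (adjusted p = 0.0637). A further list of 27 tested genes held sensors of unfolded protein, Ern1 and Atf6 among them, and targets of PERK and ATF4. Sesn2, a stress-induced regulator of growth signalling, was the 1 of these that fell, against 1.53% of all genes. It went from 7.98 and 13.7 to 4.66 and 6.97 FPKM (log2 -0.78, adjusted p = 0.0439 by limma with the block). Of the 27 genes 14 had no common sign. Of 14 messengers listed as substrates of IRE1-dependent decay, 0 passed with the block or without it.

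In the DNA replication and mitosis list, 23 of 40 genes were higher and 7 lower in both numbers, against 31.3% and 33.6% of all genes, and 2 rose, against 1.79%. Pcna, the sliding clamp of DNA polymerase, rose from 196 and 230 to 341 and 449 FPKM (log2 0.88, adjusted p = 0.0394), and the helicase subunit gene Mcm7 from 14.8 and 9.44 to 30 and 13.7 FPKM (log2 0.73, adjusted p = 0.0456). Cdkn1b, the cell cycle inhibitor p27, fell from 10.6 and 14.4 to 6.21 and 7.18 FPKM (log2 -0.80, adjusted p = 0.0311). Mki67, a marker of dividing cells, read 7.93 and 6.49 FPKM in controls and 6.98 and 9.39 FPKM with IL-4, and its 2 differences had opposite signs. Among 38 interferon-stimulated genes 22 had no common sign and 0 passed with or without the block. Isg15 read 33 and 283 FPKM in controls and 14 and 229 FPKM with IL-4, and Rsad2, an antiviral enzyme, 6.73 and 78.8 FPKM and 2.05 and 157 FPKM. Both were several-fold higher in the libraries numbered 2 in either treatment. Cxcl10, an interferon-induced chemokine, read 18.6 and 25.5 FPKM in controls and 0.851 and 41 FPKM with IL-4, so that it was lower in number 1 and higher in number 2.

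Ern1f/f macrophages without Cre gave the same direction for all 196 higher genes in both of their numbers and for 166 of the 167 lower genes. The exception, Hist1h4m, fell by 1.26 in Cre cells. The fit that called these genes took its spread from all 8 libraries, so genes whose Ern1f/f pairs disagreed were less likely to be called. No share over all genes tested stands beside these counts, which are description only. With the block 138 genes were higher (1.26%) and 94 lower (0.86%) in Ern1f/f cells. The 127 higher genes called in both genotypes made up 64.8% of the Cre list and 92.0% of the Ern1f/f list, and the 78 lower genes 46.7% and 83.0%. Both sets of calls came from the same fit and share each gene's spread, so the overlap is not independent agreement between genotypes. Whether the responses differed was tested as an interaction, and 0 genes passed by limma with or without the block (smallest adjusted p = 1 in both), and the unadjusted p was under 0.05 for 19 genes (0.174%) in the fit lacking the block and for 103 (0.942%) in the blocked one. This does not show that the responses were alike. For Arg1 the Cre response minus the Ern1f/f response was 0.23 (95% interval -0.54 to 1.0 with the block) and for Cish 0.21 (-0.21 to 0.64), while for Mgl2 (-1.61 to 2.21) and Ear2 (-1.10 to 3.28) the intervals leave wide room. The same difference was -0.87 for Socs3 (-1.44 to -0.30), -0.82 for F13a1 (-1.45 to -0.19) and 0.57 for Clec4b1 (0.15 to 1.0), each at an adjusted p of 1.0. Socs3 fell in Cre cells from 6.9 and 20.8 to 1.81 and 6.17 FPKM, and in Ern1f/f cells it read 2.47 and 12.8 FPKM in controls and 1.61 and 6.21 FPKM with IL-4. The Cre controls held more Socs3 than the Ern1f/f controls of the same number, and the IL-4 libraries of the same number were close.

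**Figure D5:**
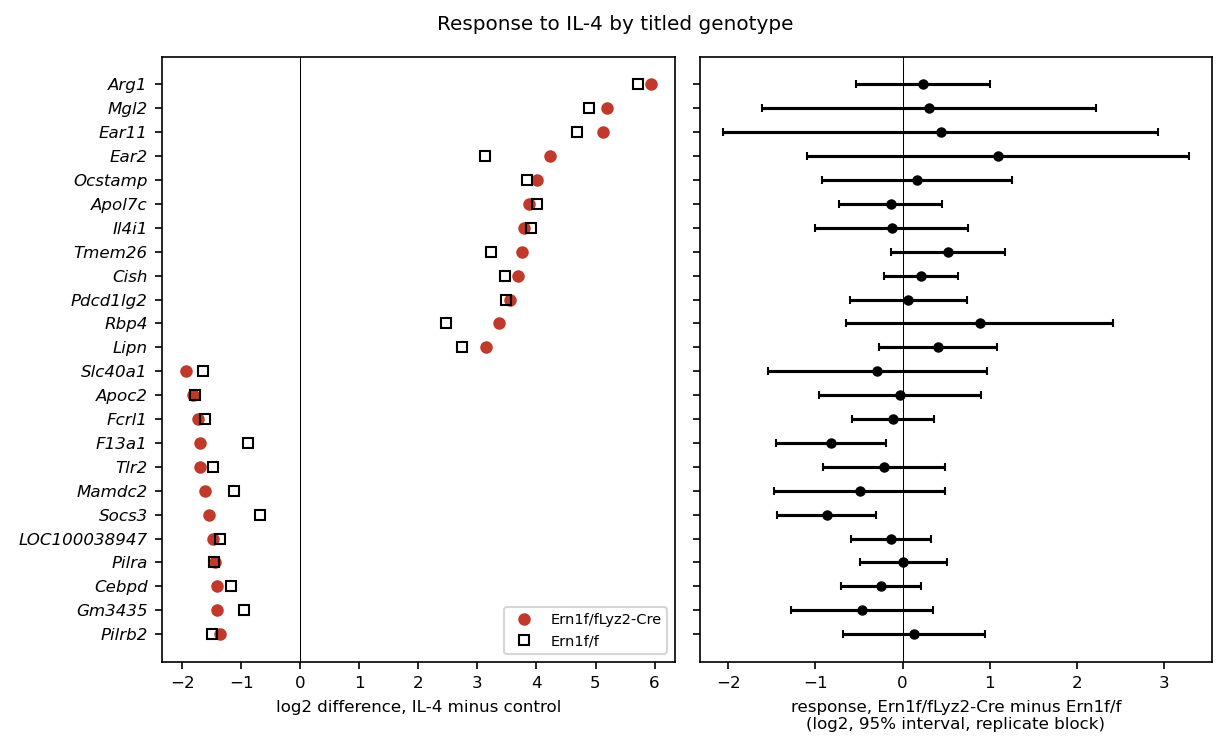
Left, log2(FPKM + 1) differences between IL-4 and control in Ern1f/fLyz2-Cre (red circles) and Ern1f/f (open squares) for the 24 leading genes, and right, the Cre response minus the Ern1f/f response with its 95% interval from the fit with the replicate block. The genes lie on the same side of 0 in both genotypes, and of the intervals those of F13a1 and Socs3 exclude 0 before correction.

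The respiratory chain list had a median response of 0.39 in Cre cells and 0.14 in Ern1f/f cells, and cytosolic ribosomal proteins 0.18 and -0.06, with medians of the gene-wise difference of 0.24 in both lists against 0.01 over all genes. For Cox7a2, a complex IV subunit, Cre controls held 155 and 150 FPKM and Cre IL-4 libraries 214 and 209 FPKM, and Ern1f/f controls 154 and 163 FPKM and Ern1f/f IL-4 libraries 129 and 168 FPKM. The difference of responses for Cox7a2 was 0.57 (0.10 to 1.05 with the block, adjusted p = 1.0). The 8 genes nearest to a difference in the interaction without the block included Snapc5, a subunit of a small nuclear RNA transcription complex, at 0.63, and Lenep at 0.84, and among the lower ones Hist1h2ak at -1.97, Hist1h4k at -1.34, the interferon-induced GTPase gene Gvin1 at -1.03 and the kinase gene Cdk6 at -0.48. Snora24 and Snhg9, both short or noncoding RNAs listed at 0 in several libraries, made up the 8. Histone messengers are mostly not polyadenylated, and several copies are nearly identical in sequence, so their FPKM are uncertain.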

How the data were processed

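RNA sequencing of 8 libraries (4 groups of 2) was deposited as gene tables of FPKM with confidence intervals. TopHat 1.4.1, Cufflinks 1.3.0 and the mm10 build are named per the submitters' processing notes. The deposited FPKM of entries sharing a symbol were summed to 23354 symbols, and log2(FPKM + 1) was taken. Genes with at least 1 FPKM in 2 libraries, 10934 in all, were tested with limma 3.58.1 in R 4.3.3 (4 group means over 8 libraries, trended empirical Bayes, two-sided, Benjamini-Hochberg, threshold 0.05). The design set the fit without the replicate number as the primary one; the fit with it as a block was an alternative. Same-numbered libraries deviated together in every pair of groups (r 0.688 to 0.827), so the numbers were taken to pair the samples, and the blocked calls are given beside the others. Groups follow the titles, since the genotype field contradicts them in 4 libraries. The implied depth of 21500000 to 37900000 fragments was estimated from confidence interval widths; only 74.4 to 76.5% of low genes came within 0.02 of whole reads, so no count test was run. Named genes were the 12 largest higher and 12 largest lower without overlap past the blocked threshold, all genes past the threshold without the block, Ern1, Lyz2 and Xbp1, list members with the largest differences of common or opposite sign or past the blocked threshold, and the 8 genes nearest to an interaction. Outside this rule, Cd68 was named for the label check, and Stat6, Myc, Klf4, Ctsk, Fth1, Ftl1, Il1b and Hist1h4m were chosen after their values were seen. The members and lists were chosen with earlier results of these data known. The code was tested on simulated data. Promoters came from RefSeq (GRCm38.p6), which is used for sequence only. Plots were drawn with Python 3.11.15 and matplotlib 3.10.9. Other pseudocounts, filters, centring and left-out libraries were tried.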

Additional observations from a re-analysis of the deposited data

Results flagged for a closer look

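For 11 genes of the lists or named for the interaction, both Cre pairs of libraries moved one way with IL-4 and both Ern1f/f pairs the other, and the test of the difference gave an adjusted p of 1.0 for each. The search covered named genes only, and no share over all genes tested stands beside this count, which is description only. Hist1h4k, Hist1h2ak, Snapc5 and Lenep were named for their small interaction p, which favours this pattern. As the Cre response minus the Ern1f/f response on the log2 scale, the ribosomal protein genes Rps23 and Rps27 stood at 0.53 and 1.57, the calcium-binding S100a13 and S100a9 at 0.41 and 0.49, and Snapc5 and Lenep at 0.63 and 0.84. The signalling inhibitor Socs4 stood at -0.27. The histone genes H2afx, Hist1h4b, Hist1h4k and Hist1h2ak stood at -0.21, -1.64, -1.34 and -1.97. For Rps27 the Cre differences were 1.9 and 0.34 in replicates 1 and 2 and the Ern1f/f differences -0.54 and -0.36. For Socs4 the Cre difference in replicate 2 was -0.02, which is close to 0.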

How the results depend on the processing

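The count of genes past the threshold in Cre macrophages depended strongly on the fit. Without the block it was 6; it was 0 with a pseudocount of 0.1, with no filter, without the trend and with Cre libraries alone, 22 with a filter at 5 FPKM, 19 with median centring, and 0 to 1 with a library left out. With the replicate block, for the pairing described above, it was 363; it was 449 with a pseudocount of 0.1, 258 with 5, 368 with median centring, 439 with the 5 FPKM filter, 513 with Cre libraries alone and, with a library left out, 168 and 163 (Ern1f/f control replicates 1 and 2), 325 and 315 (Ern1f/f IL-4), 68 and 141 (Cre control) and 7 and 2 (Cre IL-4). Grouping by the genotype field gave 1273, in a comparison that mixes the titled genotypes. Leaving out both Cre libraries of 1 number was chosen after seeing the data, and assumes that a lone library varies like the other groups: the count was 0 for either number without the block, and with it 52 without number 1 and 61 without number 2. The interaction count was 0 to 1; the 1 appeared with the block without Cre control replicate 2 (adjusted p = 0.0395). Without the block, leaving out 1 library turned the sign (or brought it to 0) for 5 of the 102 named genes past the blocked threshold and for 162 of the 297 other named genes. Of the 5, Ccl8 ranged from -2.55 (without Cre control replicate 1) to 4.44 and read -2.49 without Cre IL-4 replicate 2. Without Cre IL-4 replicate 1, H2-DMb2 read -0.05 (range to 1.98), Nfkbiz 0.29 (range to -3.60), Cd38 0.00 and Irak3 0.10 (range to -2.23). Cd38 ranged from -2.02 to 0.12, the latter without Cre control replicate 2. The cause was not tested. With 2 libraries a group and FPKM alone, counting error could not be separated from other spread.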

Other observations

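Some lists held single members that moved apart from the rest. S100a4, a calcium-binding protein of motile cells, rose from 486 and 511 to 951 and 1492 FPKM, the 1 of 8 S100 genes to pass with the block in limma (adjusted p from the fit over all genes). In the purinergic list the nucleotide receptor P2ry1 rose and P2ry2 fell, and among scavenger and apoptotic cell receptors Anxa1 rose and Gas6 fell. Lysosomal genes showed no common direction: of 36 tested, 12 were higher and 10 lower in both numbers, Atp6v0d2 rose and Neu1, a sialidase, fell. Among 7 Fc receptor genes 0 passed with or without the block.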
